A study of Mus musculus with 6 samples.

Results

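The Rab GTPases were followed in mannose receptor (MR) positive and MR-negative dendritic cells of the mouse. Members were the genes whose symbol in the array's annotation begins with Rab and a digit and that had a probe detected, at a detection p under 0.05, on at least 3 of the 6 arrays. Of 70 genes with such a symbol, 52 met this, out of 9370 named genes that met the same rule in the whole data set. The rule looks at names, so 43 of the 52 encode Rab GTPases, while the other 9 are partner genes that carry a Rab in their name. The cells were grown from bone marrow with GM-CSF for 1 week, given ovalbumin coupled to the dye Alexa647, and sorted by its uptake, which served to tell MR+ from MR- cells. There were 3 arrays of MR+ cells and 3 of MR- cells, with titles numbered M1 to M3 in each population. The labels name no strain, age or agent besides GM-CSF and ovalbumin, which both populations had in common. They do not say whether the arrays came from separate mice or cultures, so each p-value reflects the scatter among these 6 arrays alone, and that scatter may be technical.

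Rab proteins are small GTPases that mark the membranes of the cell. In the GTP-bound state each sits on its own compartment and recruits effectors that move, tether or fuse vesicles, and exchange factors and GTPase activating proteins switch it on and off. In dendritic cells they carry swallowed antigen from the early endosome towards lysosomes, return receptors to the surface, and deliver enzymes and MHC molecules to phagosomes. MR itself brings its cargo into early endosomes.

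On Illumina arrays of 45281 probes, 35.3% to 36.8% of the probes were detected per array. Precision here is set by having 3 arrays in each population. Of the dendritic cell markers, Itgax was higher and H2-Ab1, Irf8, Batf3 and Zbtb46 were lower in MR+ cells, while Flt3 and Xcr1 were detected on no array. Zbtb46 was detected on no MR+ array and met the detection filter through the MR- arrays alone, which favours a fall. Cd209a (-0.46 ± 0.16) missed the threshold (adjusted p = 0.115). With the title number as a block it passed too (adjusted p = 0.038), and 1 of the 6 tested was then higher and 5 lower. Of the macrophage markers, Csf1r, Adgre1, Mertk, Cd14, C1qb and Fcgr1 were detected on all 6 arrays, and Mertk was higher in MR+ cells, the one marker of its list to pass without the block. With the title number as a block, 3 of the 7 were higher, Mertk, C1qb (1.23 ± 0.36, adjusted p = 0.062, or 0.0017 with the block) and Cd14 (0.66 ± 0.18, adjusted p = 0.053, or 0.0032 with the block), and 1 was lower, Fcgr1 (-0.63 ± 0.30, adjusted p = 0.225, or 0.0046 with the block). The 7 tested macrophage markers had summed background-corrected levels of 8632 to 9662 on the MR+ arrays, against 6311 to 8088 on the MR- arrays. Of these sums Cd14 alone made up 48.2% to 62.5% on the MR+ arrays and 41.4% to 45.3% on the MR- arrays. Without Cd14 the macrophage list summed to 3622 to 4472 on the MR+ arrays, against 3623 to 4424 on the MR- arrays, so the ranges overlapped. The dendritic cell list summed to 5213 to 8510 on the MR+ arrays, against 13416 to 17550 on the MR- arrays, but H2-Ab1 alone made up 92.5% to 95.6% on the MR+ arrays and 94.6% to 95.9% on the MR- arrays. Without H2-Ab1 the list summed to 377 to 390 on the MR+ arrays, against 726 to 877 on the MR- arrays, and Itgax was its one member to be higher in MR+ cells.

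A small number of Rab genes differed between the populations, and they differed in both directions. Of the 52 members, 5 were higher and 5 were lower in MR+ cells at an adjusted p under 0.05, and 42 did not pass. That is 19.2% of the members, where 15.3% of all named genes tested were called, 8.19% higher and 7.13% lower, so the share is near the background. Counted by probe, 13.8% of the 16686 tested were called. Among the 43 GTPases themselves the count was 3 higher and 3 lower (14.0%). The MR+ and MR- values did not overlap for 16 of the 52 members (30.8%), against 34.6% of all genes. The median log2 difference of the members, MR+ minus MR-, was 0.11, against 0.02 for all named genes. Of the 52 differences 34 were above 0 in this scaling, but 20 were when arrays were scaled to equal medians over all probes. With no filter on dim probes, Rab7b, Rab31, Rab14 and Rab44 missed the threshold (adjusted p = 0.056, 0.090, 0.057 and 0.065), and the other 6 called members passed. Rab26 and Rab11fip4 met the detection filter through the MR- arrays alone, which favours a fall.

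**Figure D1:**
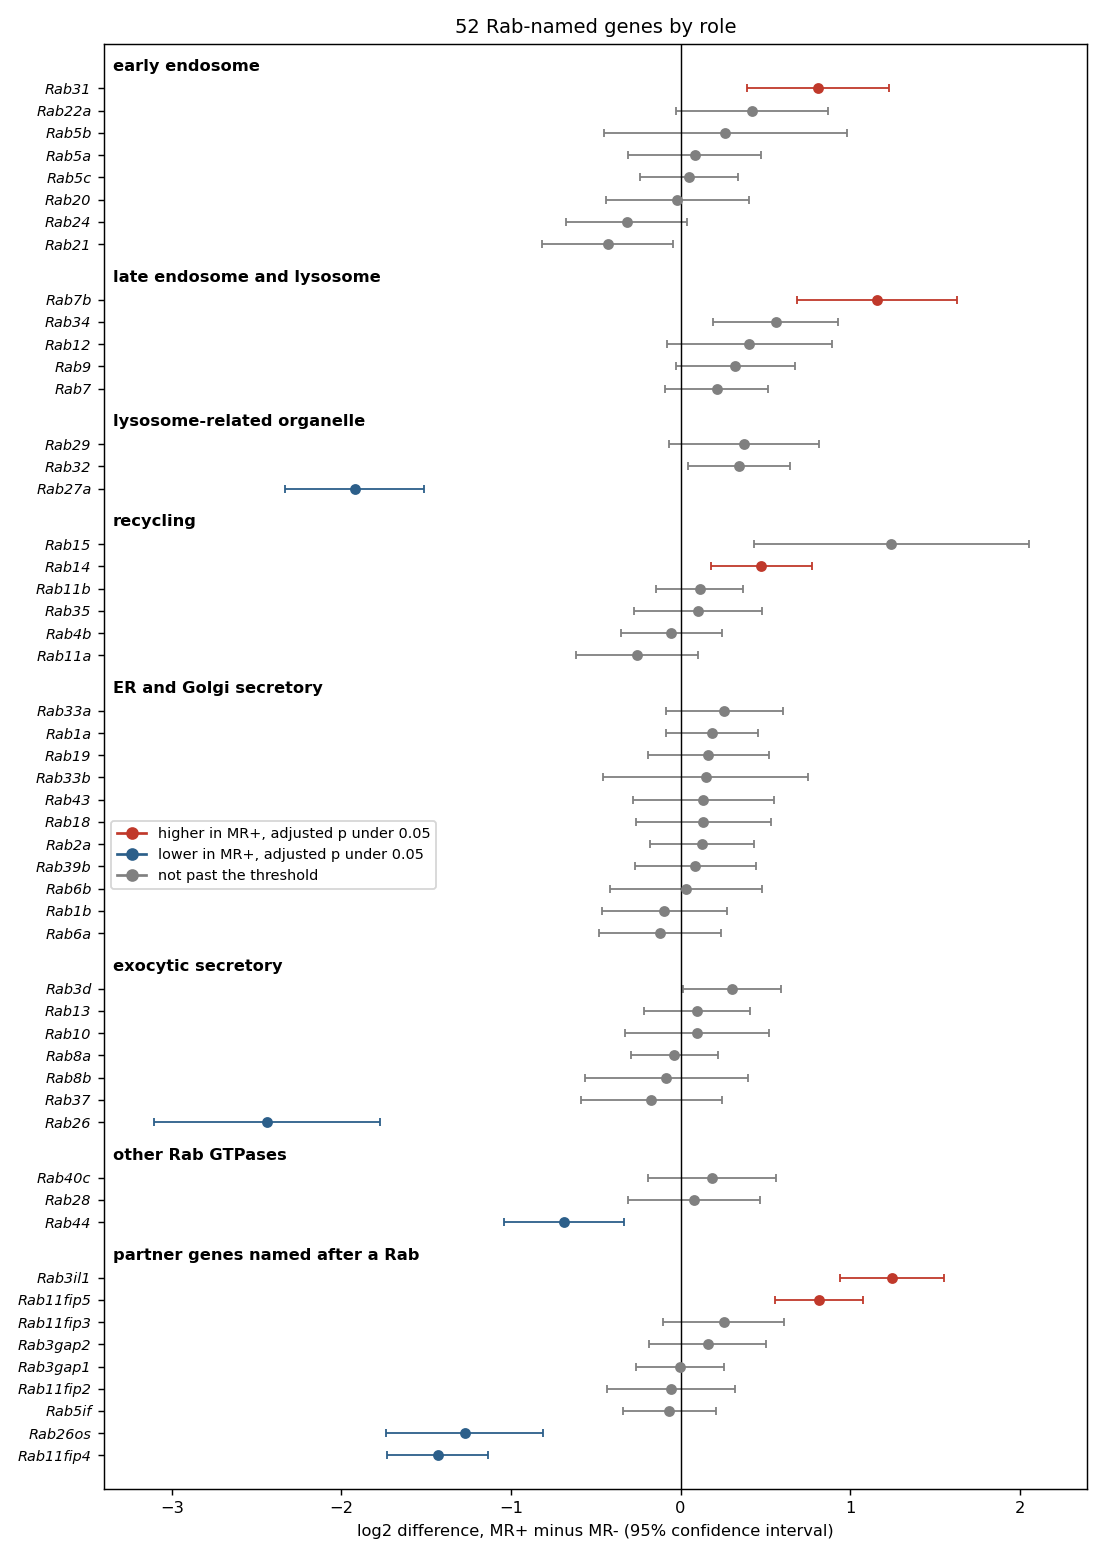
Log2 difference of each of the 52 Rab-named genes, MR+ minus MR-, with its 95% confidence interval from limma, grouped by role. Red points (5 genes) were higher and blue points (5 genes) lower in MR+ cells at an adjusted p under 0.05, and grey points (42 genes) did not pass; Rab26, which was not detected on the MR+ arrays, and Rab27a lie farthest to the left.

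With the title number as a block, 10 members were higher and 6 lower, when 30% of all named genes were called. The 6 added members were Rab12, Rab15, Rab29, Rab32 and Rab34, which were higher, and Rab21, which was lower.

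The Rab gene that fell by most in a detected range was Rab27a, which encodes the GTPase of lysosome-related organelles. It docks melanosomes and lytic granules at the plasma membrane, and in mouse dendritic cells it is known to bring NADPH oxidase to phagosomes, where it slows acidification. Rab27a had normalized log2 intensities of 7.77, 7.21 and 7.25 on the MR+ arrays, against 9.33, 9.44 and 9.22 on the MR- arrays. All MR+ arrays lay well below all MR- arrays. The log2 difference was -1.92 ± 0.17 (SE, n = 3 each), 3.79-fold lower in MR+ cells (adjusted p = 6.6e-04). In bulk samples like these, fewer cells of a type and less RNA per cell cannot be told apart. Rab27a passed under each of the 19 alternative settings tried, with differences from -2.10 to -1.73. Its close relative Rab27b, with 3 probes, was detected on no array, nor was Rab38, the melanosome GTPase related to Rab32.

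Sequences around the annotated starts, from RefSeq (GRCm38.p6, 250 bases before to 50 bases after the start, 5′ to 3′), were matched to 6 of the 10 called members. They are shown for Rab27a, for Rab26os, the neighbour of Rab26, and for Rab31, the called early endosome GTPase. Rab27a has 2 such starts, at chr9:73044560-73044859, plus strand, and at chr9:73063898-73064197, plus strand. The window of Rab26os is chr17:24528001-24528300, plus strand, and that of Rab31 is chr17:65772703-65773002, minus strand. Capitals mark matches, on either strand, to CACGTG (the E-box core), AGGTCA (a nuclear receptor half-site), GGGANNNTCC (an NF-κB-type motif) or GAGGAA (a PU.1-type core).
Rab27a, upstream start: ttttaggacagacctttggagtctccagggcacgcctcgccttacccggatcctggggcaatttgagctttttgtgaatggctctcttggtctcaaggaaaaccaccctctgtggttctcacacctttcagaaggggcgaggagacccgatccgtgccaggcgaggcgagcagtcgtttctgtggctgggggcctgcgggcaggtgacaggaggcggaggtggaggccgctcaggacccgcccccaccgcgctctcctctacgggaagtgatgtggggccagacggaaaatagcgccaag
Rab27a, downstream start: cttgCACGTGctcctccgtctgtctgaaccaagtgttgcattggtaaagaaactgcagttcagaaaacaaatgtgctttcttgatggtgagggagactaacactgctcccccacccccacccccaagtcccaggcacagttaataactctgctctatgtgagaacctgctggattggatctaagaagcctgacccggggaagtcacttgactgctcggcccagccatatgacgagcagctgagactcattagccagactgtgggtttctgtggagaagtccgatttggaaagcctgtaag
Rab26os: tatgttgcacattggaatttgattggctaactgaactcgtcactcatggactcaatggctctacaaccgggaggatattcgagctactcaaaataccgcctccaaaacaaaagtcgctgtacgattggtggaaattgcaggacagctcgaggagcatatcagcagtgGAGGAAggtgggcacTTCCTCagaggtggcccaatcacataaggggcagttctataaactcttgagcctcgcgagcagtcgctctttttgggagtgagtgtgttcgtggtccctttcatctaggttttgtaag
Rab31: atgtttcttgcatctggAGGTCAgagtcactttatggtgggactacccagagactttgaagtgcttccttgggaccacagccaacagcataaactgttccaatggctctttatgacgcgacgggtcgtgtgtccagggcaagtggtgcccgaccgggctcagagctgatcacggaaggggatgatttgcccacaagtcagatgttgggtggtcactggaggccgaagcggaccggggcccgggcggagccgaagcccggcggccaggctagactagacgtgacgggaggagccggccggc
The upstream Rab27a window held none of these letters and the downstream one held CACGTG, while that of Rab31 held AGGTCA and that of Rab26os held GAGGAA in both orientations. Windows were found for 45 of the 52 members, 61 windows in all. CACGTG occurred in 13.1% of these, in 10.2% of the 9826 windows of all tested genes and in 7.15% of all 32851 windows. For AGGTCA the shares were 9.84%, 12.6% and 16.3%, and for GAGGAA 24.6%, 27.3% and 28.3%. Windows of a gene can overlap, as for Rab3il1, so a match can count more than once. By gene, CACGTG was in 7, AGGTCA in 5 and GAGGAA in 14 of the 45 members with a window. GGGANNNTCC was in none of the 61 windows, in 5.37% of those of tested genes and in 4.59% of all. Their median GC content was 61.3%, against 60.3% for all tested genes. A match describes the letters in the window and not a bound site.

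The other members of the lysosome-related group did not pass. Rab32, which directs enzymes to melanosomes and to phagosomes, had 10.49, 10.59 and 10.76 on the MR+ arrays, against 10.17, 10.25 and 10.37 on the MR- arrays. The 2 populations did not overlap, with a difference of 0.34 ± 0.13 (adjusted p = 0.129, or 0.041 with the block). Rab29, a relative of Rab32 that recruits the kinase LRRK2, differed by 0.37 ± 0.19 (adjusted p = 0.257, or 0.039 with the block).

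Of the 7 exocytic Rabs 1 was lower in MR+ cells. That was Rab26, a GTPase of secretory granules in exocrine and endocrine cells, which had 4.26, 4.21 and 4.17 on the MR+ arrays, against 6.04, 7.29 and 6.62 on the MR- arrays. It was detected on no MR+ array and on 3 of 3 MR- arrays. Its intensity before background correction was 27.0, 26.0 and 23.3 units on the MR+ arrays, against 86.5, 175 and 116 units on the MR- arrays. Rab26 was therefore at least 4.31-fold lower in MR+ cells, where the lowest level of a detected probe on each MR+ array stands for the level of Rab26 if that was below it. The bound takes the MR- mean as exact: the fitted log2 difference was -2.44 ± 0.28 (adjusted p = 0.0019) with a 95% interval that reached -1.77. That difference was -1.37 at an offset of 50, -1.62 in the authors' processed values and -1.51 as the mean over both probes. A dimmer Rab26 probe was also undetected on the MR+ arrays, and its difference of -0.59 ± 0.19 missed the threshold (adjusted p = 0.086). Like the brighter probe, it met the detection filter through the MR- arrays alone, which favours a fall. The dimmer probe and the mean over both are thus no further evidence. Rab26os, the noncoding RNA gene next to Rab26 but for 1 uncharacterized locus in the RefSeq order, had 6.03, 6.23 and 6.02 on the MR+ arrays, against 6.93, 7.53 and 7.64 on the MR- arrays. It was thus lower on every MR+ array, with a difference of -1.27 ± 0.20, 2.42-fold lower (adjusted p = 0.0064).

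The other 6 members of the exocytic group did not pass. Rab8b and Rab8a, which carry cargo to the plasma membrane, differed by -0.08 ± 0.21 and -0.04 ± 0.11, with 95% intervals of -0.57 to 0.40 and -0.29 to 0.22. Rab3d, a granule GTPase that also occurs in mast cells, had 10.08, 10.07 and 10.02 on the MR+ arrays, against 9.72, 9.91 and 9.62 on the MR- arrays. Its populations did not overlap, but the difference of 0.30 ± 0.12 did not pass (adjusted p = 0.160). Rab10, Rab13 and Rab37 had differences of 0.10 ± 0.18, 0.10 ± 0.13 and -0.17 ± 0.18. Rab3a, Rab3b and Rab3c, best known from synaptic vesicles, were detected on no array.

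**Figure D2:**
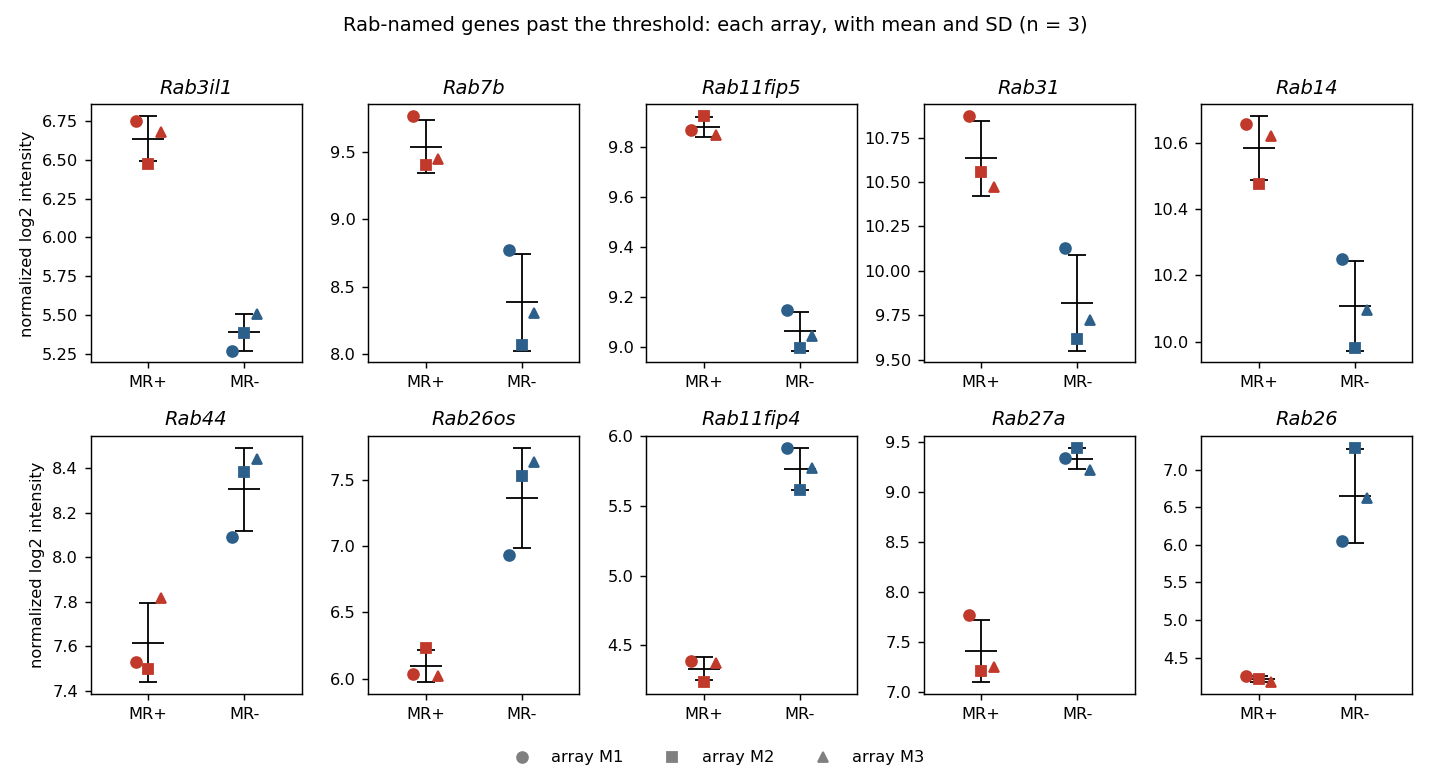
Normalized log2 intensity of the 10 Rab-named genes past the threshold on each of the 6 arrays, MR+ left and MR- right, with symbols for the title numbers M1 to M3 and bars for mean and SD (n = 3). The scale differs between panels and does not start at 0; in each panel the 3 MR+ and the 3 MR- values lie apart, and for Rab26 and Rab11fip4 the MR+ values are not above background.

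All 5 tested Rab genes of the late endosome and lysosome had differences above 0, where 34 of the 52 members and 4996 of the 9370 named genes did. They stayed above 0 under each of the 5 other scalings, offsets and value tables tried, which draw on the same 6 arrays. A single member of the 5 passed. That was Rab7b, which sends proteins from late endosomes back to the trans-Golgi network and dampens Toll-like receptor signalling in macrophages. Rab7b had 9.77, 9.41 and 9.45 on the MR+ arrays, against 8.77, 8.07 and 8.30 on the MR- arrays. Every MR+ array was above every MR- array, and among the MR- arrays that of M1 was the highest. Its difference was 1.16 ± 0.20 (SE, n = 3 each), 2.23-fold higher in MR+ cells (adjusted p = 0.010). The dimmer Rab7b probe also rose, by 0.83 ± 0.18 (adjusted p = 0.025).

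Rab34, a Golgi and phagosome GTPase that governs the position of lysosomes, had 6.85, 7.13 and 7.09 on the MR+ arrays, against 6.25, 6.71 and 6.44 on the MR- arrays by its brightest probe. The populations lay apart, and the difference of 0.56 ± 0.16 narrowly missed the threshold (adjusted p = 0.057, or 0.0082 with the block). Its dimmer probes both passed, at 0.67 ± 0.17 (adjusted p = 0.037) and 0.77 ± 0.11 (adjusted p = 0.0040). Rab7, the main GTPase of late endosomes and of their fusion with lysosomes, had 11.12, 11.36 and 11.23 on the MR+ arrays, against 10.88, 11.13 and 11.06 on the MR- arrays. Its values overlapped between the populations, with a difference of 0.21 ± 0.13 (adjusted p = 0.350) and a 95% interval of -0.09 to 0.52. Rab9, which returns mannose-6-phosphate receptors from late endosomes to the Golgi, differed by 0.32 ± 0.15 (adjusted p = 0.218). Rab12, which steers the transferrin receptor to lysosomes, differed by 0.41 ± 0.21 (adjusted p = 0.265, or 0.026 with the block).

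In the early endosome group 1 of 8 members rose. Rab31, which moves cargo such as mannose-6-phosphate receptors between the trans-Golgi network and endosomes and takes part in phagosome formation, had 10.87, 10.55 and 10.47 on the MR+ arrays, against 10.13, 9.61 and 9.72 on the MR- arrays. Each MR+ value was above each MR- value. The difference was 0.81 ± 0.18 (1.75-fold, adjusted p = 0.025). Its closest relative Rab22a, of early endosomes and recycling tubules, had 6.21, 6.27 and 6.76 on the MR+ arrays, against 5.79, 6.24 and 5.94 on the MR- arrays. These values overlapped, and the difference of 0.42 ± 0.19 did not pass (adjusted p = 0.209).

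The Rab5 genes, whose products organise the early endosome itself, did not pass. Rab5a had 8.87, 9.30 and 8.87 on the MR+ arrays, against 8.74, 9.11 and 8.94 on the MR- arrays. The populations were interleaved, with a difference of 0.08 ± 0.17 and a 95% interval of -0.31 to 0.48. For Rab5c the difference was 0.05 ± 0.12 with an interval of -0.24 to 0.34, and for Rab5b it was 0.26 ± 0.31 with the wider interval -0.45 to 0.98. Rab21, which carries integrins through early endosomes, had 7.05, 7.46 and 7.06 on the MR+ arrays, against 7.44, 7.82 and 7.62 on the MR- arrays. Its difference of -0.43 ± 0.17 did not pass (adjusted p = 0.140, or 0.021 with the block). Rab24, linked to autophagy, differed by -0.32 ± 0.15 (adjusted p = 0.234), and Rab20, a phagosome GTPase detected on 2 of 3 MR+ and 1 of 3 MR- arrays, by -0.02 ± 0.18.

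Of the 6 recycling Rabs 1 passed. Rab14, which works between early endosomes, recycling endosomes and the Golgi and is held on some phagosomes, had 10.66, 10.48 and 10.62 on the MR+ arrays, against 10.25, 9.98 and 10.10 on the MR- arrays. The 2 populations lay apart by a narrow margin, and the difference was 0.48 ± 0.13 (1.39-fold, adjusted p = 0.047). A dimmer Rab14 probe, at 0.14 ± 0.15, missed the threshold (adjusted p = 0.609). Rab14 and Rab31 no longer passed without the MR+ array of M1, of M2 or of M3, nor without the MR- array of M2 or of M3, with adjusted p from 0.094 to 0.151 for Rab14 and from 0.060 to 0.101 for Rab31. Rab14 was also not past the threshold with arrays scaled to equal medians (adjusted p = 0.140).

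Rab15, which in cultured cells slows the return of receptors through early and recycling endosomes, had 9.88, 9.21 and 9.71 on the MR+ arrays, against 9.02, 7.62 and 8.43 on the MR- arrays. Here the spread within a population was the widest of the recycling members, and in each population M1 was highest and M2 lowest. The populations did not overlap, and the difference of 1.24 ± 0.35 missed the threshold (adjusted p = 0.056), but within title numbers it was 0.86, 1.59 and 1.28, and it passed with the block (adjusted p = 0.0011). Rab11a, the main GTPase of the recycling endosome, had 6.33, 6.38 and 6.57 on the MR+ arrays, against 6.42, 6.77 and 6.86 on the MR- arrays. Its values overlapped, and the difference was -0.26 ± 0.15 (adjusted p = 0.341). Its relative Rab11b differed by 0.11 ± 0.11, with a 95% interval of -0.14 to 0.37. Rab35, of fast recycling, differed by 0.10 ± 0.16, and Rab4b by -0.05 ± 0.13.

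**Figure D3:**
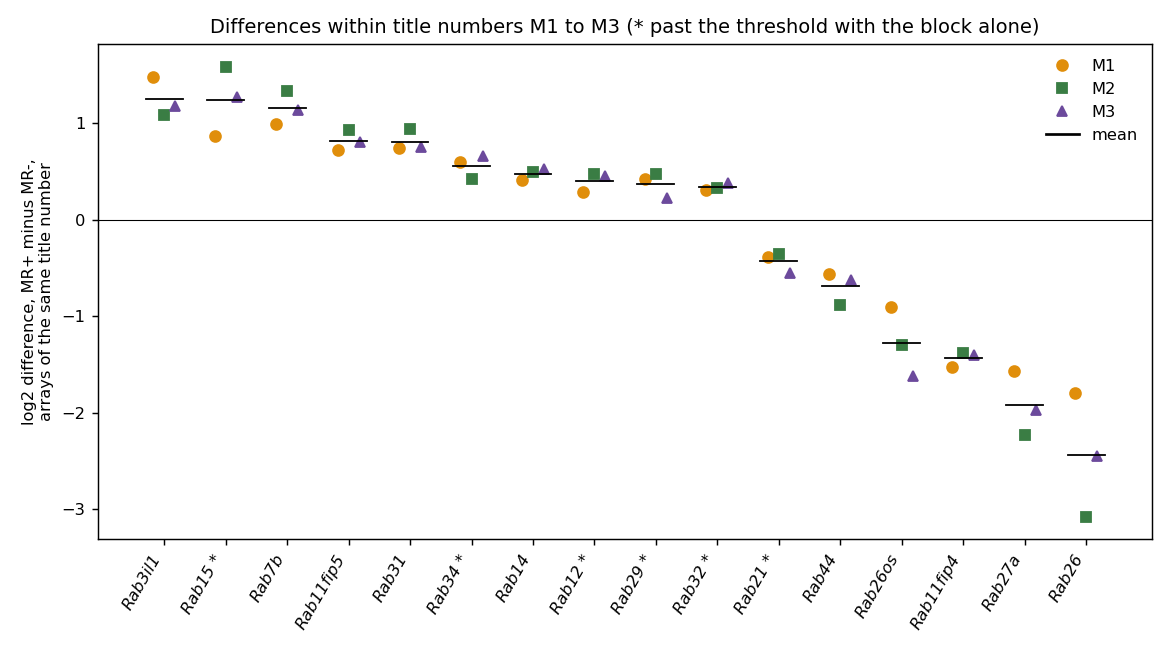
Log2 difference, MR+ minus MR-, between the arrays of the same title number, for the 16 Rab-named genes that passed with or without the block; the horizontal bars are the means of the 3 differences. An asterisk marks the 6 genes that passed with the block alone, and the 3 differences of each of the 16 genes lie on the same side of 0, which passing with the block favours.

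The Rabs of the endoplasmic reticulum and Golgi formed the largest group, and none of its 11 members passed by limma. No member had an unadjusted p under 0.05 either, and the count with the block was also 0. Their differences ran from -0.12 to 0.26 with a median of 0.13, or -0.03 with equal medians over all probes. The 95% intervals of all 11 lay within a 2-fold change, and those of 9 within a 1.5-fold change. Rab33a, a Golgi GTPase, had the smallest p of the group, with a difference of 0.26 ± 0.15 (adjusted p = 0.317). Rab1a, which takes vesicles from the endoplasmic reticulum to the Golgi, had 8.97, 8.85 and 8.91 on the MR+ arrays, against 8.69, 8.65 and 8.83 on the MR- arrays. Although these values did not overlap, the difference of 0.18 ± 0.12 did not pass (adjusted p = 0.365). Rab43, a Golgi GTPase that is known to be needed for cross-presentation in mouse CD8α+ dendritic cells, had 8.17, 8.40 and 8.50 on the MR+ arrays, against 7.90, 8.28 and 8.48 on the MR- arrays. The populations overlapped, with a difference of 0.14 ± 0.18 and a 95% interval of -0.28 to 0.55. Rab39, a phagosome and Golgi GTPase, was detected on no MR+ array and on 1 MR- array and was not tested.

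Of the GTPases outside these groups, Rab44 fell. Rab44 is a large Rab with an EF-hand calcium-binding region, described in granule release of mouse mast cells. It had 7.53, 7.50 and 7.82 on the MR+ arrays, against 8.09, 8.38 and 8.44 on the MR- arrays. No MR+ array reached the lowest MR- array, and the difference was -0.69 ± 0.15 (1.61-fold lower, adjusted p = 0.025). It no longer passed without the MR+ array of M1 or of M2, or without the MR- array of M2 or of M3, with adjusted p from 0.063 to 0.103. Rab40c, a subunit of ubiquitin ligases, and Rab28, of the photoreceptor cilium, differed by 0.18 ± 0.16 and 0.08 ± 0.17.

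Partner genes named after a Rab were called at 4 of 9, 2 in each direction, Rab26os among them, where 15.3% of all named genes were called; with 9 genes this is given as a count only. Rab3il1, an exchange factor for the Rab3 and Rab8 families, had 6.75, 6.47 and 6.68 on the MR+ arrays, against 5.27, 5.39 and 5.51 on the MR- arrays. It was 2.38-fold higher in MR+ cells, a difference of 1.25 ± 0.13 (adjusted p = 0.0012). At an offset of 50 the difference was 0.81. Its 2 dimmer probes, at 0.71 ± 0.12 and 0.61 ± 0.12, met the detection filter through the MR+ arrays alone, which favours a rise, so they are no further evidence. The 2 called Rab11 effector genes differed in opposite directions. Rab11fip5, which links Rab11 vesicles to apical and recycling traffic, had 9.87, 9.92 and 9.85 on the MR+ arrays, against 9.15, 9.0 and 9.05 on the MR- arrays. It was higher by 0.82 ± 0.11 (1.76-fold, adjusted p = 0.0037), with a dimmer probe at 0.62 ± 0.13 (adjusted p = 0.022).

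Rab11fip4, an effector shared by Rab11 and Arf GTPases, had 4.39, 4.24 and 4.38 on the MR+ arrays, against 5.91, 5.61 and 5.77 on the MR- arrays. It was detected on none of the MR+ arrays and on all MR- arrays, a level at least 2.33-fold lower in MR+ cells if the MR- mean is taken as exact. Its fitted difference of -1.43 ± 0.13 (adjusted p = 6.3e-04) had a 95% interval that reached -1.13. The difference was -0.71 at an offset of 50 and -0.84 in the authors' processed values. Rab11fip3 and Rab11fip2 had differences of 0.25 ± 0.15 and -0.06 ± 0.16 and did not pass. The 2 subunits of the Rab3 GTPase activating complex, Rab3gap1 and Rab3gap2, differed by -0.01 ± 0.11 and 0.16 ± 0.15, and Rab5if by -0.07 ± 0.12. Rab11fip1 and Rab3ip were each detected on no MR+ array and on 2 MR- arrays, which kept them out of the test.

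Markers of other cell types were measured beside the members that fell. The T and NK cell list had 10 genes on the array, and 4 were tested: Cd3d, Cd3g and Klrd1 were lower and Cd2 was higher in MR+ cells. Cd3d met the detection filter through the MR- arrays alone and Cd2 through the MR+ arrays alone, which favours these directions. The summed background-corrected level of these 10 genes was 65.9 to 105 on the MR+ arrays, against 1873 to 4908 on the MR- arrays, and without Cd3g, its largest part, 52.8 to 72.2 on the MR+ arrays, against 408 to 1895 on the MR- arrays. Cd4, Cd8a, Cd5, Nkg7 and Ncr1 were detected on no array. All 6 markers of mature dendritic cells (Ccr7, Fscn1, Il4i1, Ccl22, Cd83 and Relb) were lower, with summed levels of 822 to 874 on the MR+ arrays, against 4109 to 6009 on the MR- arrays. Of these, Ccl22 met the detection filter through the MR- arrays alone, which favours a fall. None of 7 neutrophil markers passed by limma, but 5 were lower at an unadjusted p under 0.05 and 6 with the block, and the summed levels of the list were 3080 to 5434 on the MR+ arrays, against 5116 to 17283 on the MR- arrays, of which S100a8 made up 76.9% to 78.3% on the MR+ arrays and 73.7% to 75.4% on the MR- arrays. Mast cell or basophil markers, 3 of 6 tested and none past the threshold by limma or at an unadjusted p under 0.05 (1 higher with the block), summed to 370 to 591 on the MR+ arrays, against 257 to 499 on the MR- arrays, with Ms4a2 and Prss34 detected on no array. Without Kit, the largest part, they summed to 32.6 to 46.1 on the MR+ arrays, against 41.5 to 73.2 on the MR- arrays. B cell markers, with 2 of 4 tested and Blk lower, summed to 15.6 to 34.8 on the MR+ arrays, against 33.6 to 119 on the MR- arrays, and Ms4a1 and Pax5 were detected on no array. Without Blk the B cell list summed to 14.1 to 32.2 on the MR+ arrays, against 15.2 to 24.7 on the MR- arrays. Blk met the detection filter through the MR- arrays alone, which favours a fall. Of the plasmacytoid list, Tcf4 alone was tested and did not pass, Siglech, Ccr9 and Klk1 were detected on no array, and the sums were 178 to 218 on the MR+ arrays, against 151 to 193 on the MR- arrays. The part of these markers in the values of Rab27a, Rab26, Rab26os, Rab44 and Rab11fip4 was not tested. Nor was the part of these or of the macrophage markers in the members that rose.

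Genes that load, switch or read Rab proteins were also measured. Of 102 tested genes of this list, 8 were higher and 7 lower in MR+ cells (14.7%), again near the background, with a median difference of 0.08. With the block 23 were higher and 12 lower (34.3%), where 30% of all named genes were called. Of the 5 genes for GDP dissociation inhibitors, escort proteins and prenylation, none passed by limma (1 higher and 1 lower at an unadjusted p under 0.05, and likewise with the block). Rabggta, a subunit of the transferase that attaches the lipid anchor of Rabs, came closest (0.38 ± 0.13, adjusted p = 0.103).

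Of the exchange factors 3 of 35 rose and 1 fell. Rin3, an exchange factor for Rab5 and Rab31, had 8.73, 7.87 and 8.07 on the MR+ arrays, against 9.99, 9.37 and 9.62 on the MR- arrays. It was 2.70-fold lower in MR+ cells (-1.43 ± 0.25, adjusted p = 0.010), while Rab31 itself was higher. The genes that rose were Dennd6a, an exchange factor for Rab14 (0.59 ± 0.13, adjusted p = 0.028), Dennd2a, one for Rab9 (0.60 ± 0.15, adjusted p = 0.035), and Trappc10, a subunit of the TRAPP complex that acts on Rab1 and Rab11 (0.46 ± 0.12, adjusted p = 0.045). Of the 3 dimmer Dennd6a probes 1 passed, and the mean over its probes did not (adjusted p = 0.060).

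GTPase activating proteins had 3 falls and 1 rise among 29. Tbc1d10c, a haematopoietic TBC-domain protein that also restrains calcineurin and Ras, had 6.04, 5.59 and 5.45 on the MR+ arrays, against 8.43, 7.70 and 7.91 on the MR- arrays. By this probe, the brightest of 3, all MR+ values lay below all MR- values, with a difference of -2.32 ± 0.23 (adjusted p = 9.8e-04). Its dimmer probes did not pass and differed in sign, at 0.19 ± 0.19 (adjusted p = 0.600) and -0.69 ± 0.19 (adjusted p = 0.054). The mean over the 3 probes was -0.94 (adjusted p = 0.0043). The probe at -0.69 met the detection filter through the MR- arrays alone, which favours a fall, and the mean includes it. Tbc1d8, another TBC-domain protein, fell by 1.95 on the log2 scale (adjusted p = 3.8e-04). Tbc1d4, which acts on Rab8, Rab10 and Rab14 in insulin-driven glucose uptake, was detected on none of the MR+ arrays and on all MR- arrays. It thus met the detection filter through the MR- arrays alone, which favours a fall. This puts it at least 2.11-fold lower in MR+ cells if the MR- mean is taken as exact. Its fitted difference of -1.41 ± 0.20 (adjusted p = 0.0047) had a 95% interval that reached -0.94, and it was -0.67 at an offset of 50 and -0.88 in the authors' processed values. Evi5, a TBC-domain protein that binds Rab11, rose by 0.82 ± 0.12 (adjusted p = 0.0051).

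**Figure D4:**
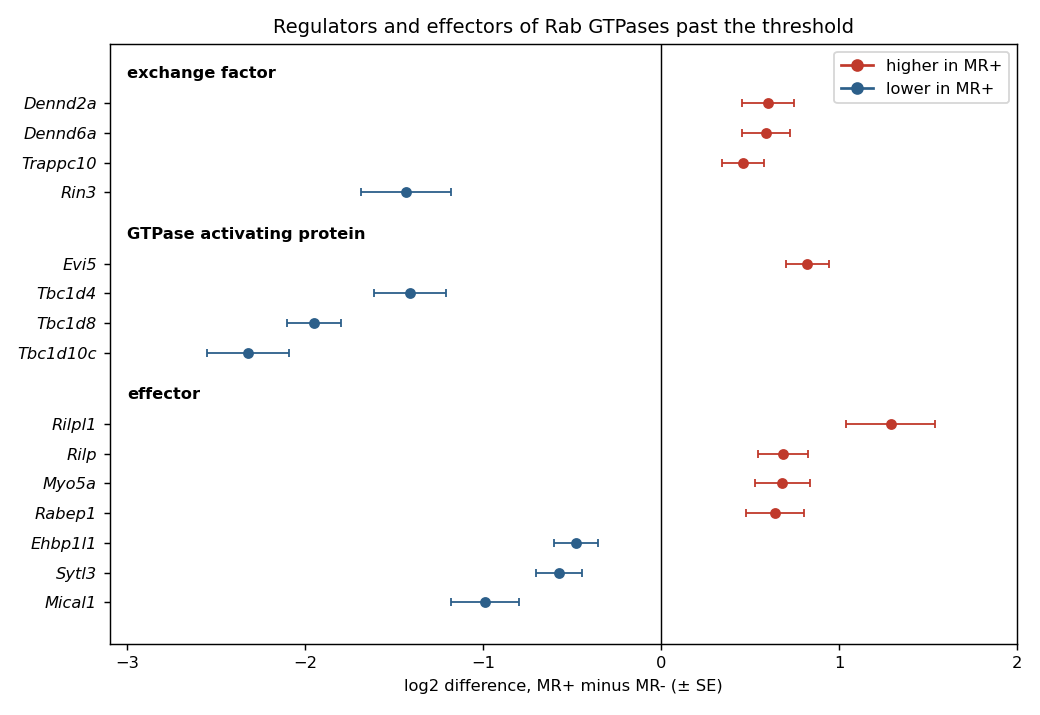
Log2 difference, MR+ minus MR-, with its standard error, of the 15 genes of the Rab pathway list past the threshold, by class. The 8 genes in red were higher in MR+ cells and the 7 in blue lower, with Tbc1d10c and Tbc1d8 farthest to the left and Rilpl1 farthest to the right.

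Of 33 effectors, 4 rose and 3 fell. Rilp, which joins Rab7 on late endosomes to the dynein motor, rose by 0.69 ± 0.14 (adjusted p = 0.018), and its relative Rilpl1, which binds Rab8 and Rab10, by 1.29 ± 0.25 (adjusted p = 0.015). Myo5a, the myosin that Rab27a engages through melanophilin in melanocytes, rose by 0.68 ± 0.15 (adjusted p = 0.026). Mical1, an actin-oxidising enzyme that binds Rab1 and Rab35, was lower (-0.99 ± 0.19, adjusted p = 0.015), as was 1 of its 2 dimmer probes. The other 3 called effectors were named after their values were seen: Sytl3, a Rab27 effector, was lower and not detected on any MR+ array (-0.57 ± 0.13, adjusted p = 0.026), Ehbp1l1, a Rab8 effector, was lower (-0.48 ± 0.12, adjusted p = 0.043), and Rabep1, the Rab5 effector rabaptin-5, was higher (0.64 ± 0.16, adjusted p = 0.041), although its 2 dimmer probes missed the threshold. For Sytl3 the bound was 1.38-fold with the MR- mean taken as exact, the 95% interval reached -0.27, and the call was lost at an offset of 50 (-0.25, adjusted p = 0.067) and in the authors' processed values (-0.30, adjusted p = 0.055). Sytl3, like Tbc1d4, met the detection filter through the MR- arrays alone, which favours a fall. With detection required on all 6 arrays, 8 genes of the list were higher and 5 lower, and neither Sytl3 nor Tbc1d4 was among them. With arrays scaled to equal medians over all probes, Myo5a, Rilp, Rabep1, Dennd2a, Dennd6a and Trappc10 lost their calls (adjusted p from 0.065 for Myo5a to 0.193 for Trappc10). With no filter on dim probes, Rin3, Mical1, Rilpl1, Myo5a, Rabep1, Dennd2a and Dennd6a did (adjusted p from 0.051 for Dennd6a to 0.113 for Rabep1). Trappc10 also missed the threshold with cyclic loess (adjusted p = 0.051) and Ehbp1l1 with trended robust moderation (adjusted p = 0.060), and with equal medians over the tested probes Sytl3, Ehbp1l1 and Trappc10 did. Of the 15 genes of this list, Tbc1d8, Tbc1d10c, Tbc1d4 and Evi5 passed without any 1 array, while each of the other 11 lost its call without the MR+ array of M3, Rin3 without that array alone. Without the MR+ array of M3, 1 gene of the list was higher and 3 lower, and without the MR- array of M3, 1 was higher and 5 lower. The counts were 4 higher and 4 lower without the MR+ array of M2, and 3 and 5 without the MR- array of M2.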

How the data were processed

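Total RNA of sorted cells was labelled with biotin as cRNA and hybridised to Illumina arrays, per the labels' protocols. The deposited non-normalized table gives an intensity per probe and array on a linear scale, with a p-value beside it per the file headers, taken as the detection p because it falls as intensity grows. A second table that the authors deposited holds linear intensity with identical sorted values on every array, as quantile normalization gives. The software behind both is not given in the sources used here. With limma 3.58.1 in R 4.3.3, neqc corrected the background from the detection p, quantile normalized, added an offset of 16 and took log2. Probes detected (p under 0.05) on at least 3 of 6 arrays were kept, 16686 of 45281, and the brightest probe stood for each gene. All 52 members matched a gene ID and the same symbol in RefSeq. A fit with the population as its single term (lmFit, eBayes) was two-sided, with Benjamini-Hochberg adjustment over all probes and a threshold of 0.05. It was tested on simulated data first. All differences are MR+ minus MR-, on the scale of log2 intensity with this offset, which understates changes of dim genes.

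Members, role groups, lists and tests were chosen with earlier results of these data known. Named were all members past the threshold, those with an adjusted p under 0.10, the 2 of each role group with the smallest p, a set of phagosome and cross-presentation Rabs, and up to 4 called genes per class of the Rab pathway list. A probe undetected on all arrays of a population gives a bound. Deviations of same-numbered arrays from their population means correlated at 0.708 (M1), 0.569 (M2) and 0.275 (M3). The numbers were therefore used to pair arrays in the fit with a block, an alternative to the main fit. However, MR+ M2 with MR- M3 reached 0.382, and MR+ M3 with MR- M2 reached 0.290, above the M3 pair itself. The labels do not say what the numbers stand for, so p-values with the block depend on this choice. Alternatives changed the offset, scaling, filter, probe rule, block, moderation and arrays. Promoter windows and the order of neighbouring genes came from RefSeq tables of GRCm38.p6.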

Additional observations from a re-analysis of the deposited data

How the results depend on the processing

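No called member changed direction under any alternative run. The count stayed at 5 higher and 5 lower with an offset of 50, with cyclic loess, with trended robust moderation and with the authors' processed values. Those values, without background correction, gave smaller differences for Rab26 (-1.62), Rab11fip4 (-0.84) and Rab3il1 (0.88), as did the offset of 50 (-1.37, -0.71 and 0.81), and the mean over probes gave -1.51 for Rab26 and 5 calls each way, with Rab34 in and Rab14 out. With arrays scaled to equal medians over all probes, 4 were higher and 5 lower, the median over all tested probes was -0.11 against 0.02, and 30.6% instead of 52.2% of all calls were higher; scaled over the tested probes, an alternative chosen after seeing the data, 6 and 5. Without a filter on dim probes 2 were higher and 4 lower, and with detection on all 6 arrays 3 were lower, since Rab26 and Rab11fip4 were no longer tested. With the replicate block 10 were higher and 6 lower. Leaving out 1 array gave 3 to 6 higher and 4 to 5 lower. Without both arrays of M2, 1 was higher and 3 lower, and without both of M3, 0 were higher by limma (4 at an unadjusted p under 0.05) and 1 lower, Rab27a. Without both arrays of M1, 7 were higher and 5 lower. Of the pathway list, 7 fell and 8 rose, against 5 and 4 without a filter, 9 and 2 with equal medians, 6 and 12 at an offset of 50 or with the authors' values, 2 and 0 without both arrays of M2, and 1 and 0 without both of M3 (11 higher at an unadjusted p under 0.05 in each). The cause was not tested. Levels near background limit Rab26, Rab11fip4, Rab20, Rab37, Rab39b and Rab11fip2, which were not detected on every array.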

Other observations

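Some members were read by several probes that did not move alike. The 4 probes of Rab6a, a Golgi GTPase, differed by -0.12 ± 0.15, 0.36 ± 0.20, -0.45 ± 0.23 and -0.39 ± 0.17 on the log2 scale, MR+ minus MR-, and none passed. In contrast, for Rab7 the 4 probes differed by 0.21 ± 0.13, 0.43 ± 0.15, 0.42 ± 0.15 and 0.23 ± 0.13, all above 0 and none past the threshold. The dimmer probe of Rab9 differed by 0.49 ± 0.14 (adjusted p = 0.053), more than the brighter one.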
